A study of Mus musculus with 6 samples.

Results

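Aldehyde dehydrogenases are enzymes that oxidize aldehydes to carboxylic acids, and each member of the family prefers other substrates. Aldh1a3 and Aldh1a1 make retinoic acid, the ligand of nuclear receptors that control differentiation, from retinaldehyde. Aldh2 and Aldh1b1 clear small aldehydes in mitochondria, Aldh3a2 clears fatty aldehydes at the endoplasmic reticulum, Aldh7a1 acts in the breakdown of lysine, Aldh9a1 acts in the synthesis of carnitine, and Aldh18a1 makes the precursor of proline from glutamate. In melanoma, high aldehyde dehydrogenase activity has been used as a marker of cells that start tumors, and Aldh1a3 is among the members linked to it.

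The 8 genes Aldh1a3, Aldh1a1, Aldh1b1, Aldh2, Aldh3a2, Aldh7a1, Aldh9a1, and Aldh18a1 were examined, of 25215 genes listed. They were found by their symbols, and the set was chosen from earlier values of these data, in which Aldh1a3 was lower in R499 tumors than in the others. Differences between R499 and the other tumors are therefore given for the members as a description, with no test. The difference between treated and untreated B16 tumors was not used in that choice and was tested. Of the 8 genes, 7 had a value above 0 in at least 1 retained cell, and 6 passed the filter on low values.

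Tumors of C57BL/6 mice were compared in 3 conditions with 2 tumors each. B16 tumors grew from the melanoma line B16-F10 without treatment, B16PD1 tumors grew from the same line in mice given 200 μg of anti-PD1, an antibody against the immune checkpoint receptor PD1, on days 5, 8, and 11, and R499 tumors grew without treatment from Res499, a B16-F10 derivative that came from a B16 tumor that relapsed after radiation and anti-CTLA4. The flanks of 6 mice received 50000 cells under the skin, tumors were taken on day 15, and cells without the immune marker CD45 were sorted before full-length Smart-seq libraries were made. R499 is a single derived line, so what belongs to that line and what belongs to relapse cannot be told apart.

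The values were TPM, transcript abundances scaled for transcript length and to a fixed total in each cell, so levels of different genes can be compared. Of 602 cells, 507 were retained, with 75 to 91 per tumor, and the median number of genes detected (TPM above 0) was between 3141 and 3838.5 by tumor, lowest in R499015. TPM do not keep the number of reads, so the depth behind a value is unknown, and a gene at 0 in a cell may have been missed. The cells bore the melanocyte label: all 8 lineage markers were found in every condition, with a summed level of 14425 to 17667 TPM by tumor. Of 12 immune markers 4 to 6 were found in a condition, at a summed level of 5.98 to 228 TPM by tumor. The most often found, Fcer1g, was in 5.65% of B16, 7.47% of B16PD1, and 3.21% of R499 cells. The T cell marker Cd3d was at 0 in all 3 conditions, but the T cell marker Cd3e was found in R499. Ptprc, the gene of CD45, was found in B16. Of 7 fibroblast and 5 endothelial markers, 1 to 5 and 1 to 2 were found, at no more than 3.01 and 2.30 TPM, and all 5 keratinocyte markers were at 0. Immune markers were lowest in R499, at 5.98 and 6.09 TPM, and their part in the differences below was not tested.

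Aldh1a3 (ENSMUSG00000015134) lies on the minus strand of chromosome 7 of GRCm38, from 66390890 to 66427517, and overlaps no other annotated gene. It was a rare transcript in every condition. Among untreated B16 cells, 11 of 91 from B16007 (12.1%) and 7 of 86 from B16008 (8.14%) had the transcript. Among treated cells the counts were 18 of 86 from B16PD1000 (20.9%) and 15 of 88 from B16PD1002 (17.0%). Among R499 cells they were 2 of 81 from R499015 (2.47%) and 0 of 75 from R499016. The order was thus B16PD1, B16, R499 in all 6 tumors, without overlap between conditions. How many of all genes have this full order was not counted. With a stricter limit of 5% on mitochondrial TPM per cell the order held. B16PD1002, with 8 of 68 cells (11.76%), was then all but level with B16007, with 9 of 80 (11.25%). The 95% Wilson intervals, which cover counting error only, were 13.7% to 30.7% and 10.6% to 26.2% in the B16PD1 tumors, 6.89% to 20.4% and 4.0% to 15.9% in the B16 tumors, and 0.68% to 8.56% and 0% to 4.87% in the R499 tumors. For the count of 0, the limit of 3 counts gives a share of up to 4%, a rule that differs from the Wilson bound. The intervals of B16 and B16PD1 tumors overlapped, that of B16008 overlapped those of both R499 tumors, and that of B16007 overlapped that of R499015.

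**Figure D1:**
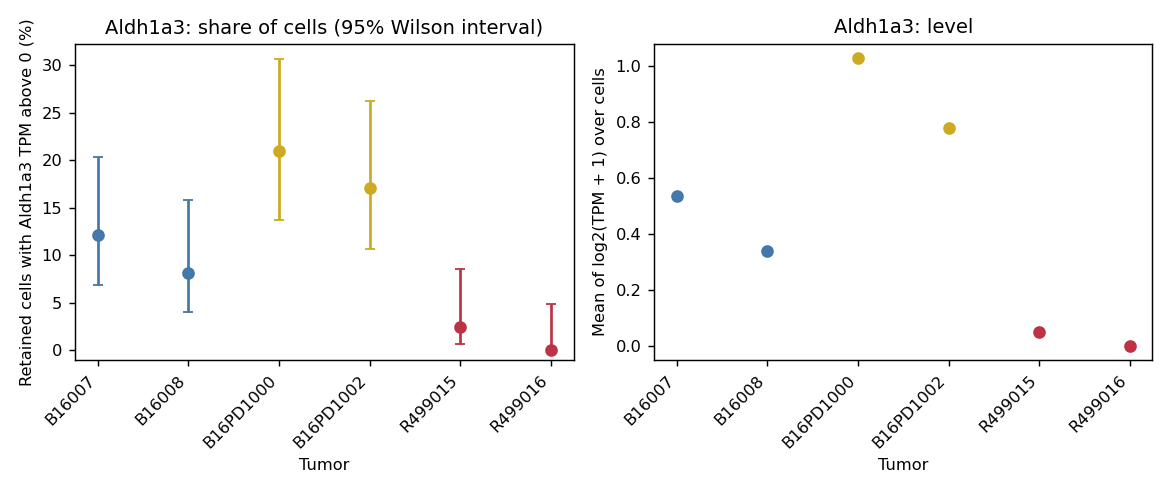
Share of retained cells with Aldh1a3 TPM above 0, in percent with 95% Wilson intervals, and the mean of log2(TPM + 1) over retained cells, by tumor (colors: B16 blue, B16PD1 yellow, R499 red). The B16PD1 tumors are highest on both scales, at 20.9% and 17.0% of cells, and the R499 tumors lowest, at 2.47% and 0%.

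Levels in the cells with the transcript are given next as a description. The 18 B16 cells with Aldh1a3 had a median of 23.9 TPM and ranged up to 72.8 TPM, and the 33 B16PD1 cells had a median of 30.4 TPM and ranged up to 151 TPM. The 2 R499 cells had 2.37 and 3.40 TPM. Above 10 TPM there were 13 of 177 B16 cells, 26 of 174 B16PD1 cells, and 0 of 156 R499 cells. As tumor means over all retained cells, Aldh1a3 was at 3.57 and 1.95 TPM in B16, 8.92 and 5.99 TPM in B16PD1, and 0.071 and 0 TPM in R499. The mean of the R499 tumors was 1.29% of that of the B16 tumors, whereas that of the B16PD1 tumors was 270% of it. The first percentage rested on 2 cells of R499015, being 0% without that tumor and 2.58% without R499016, and without a filter on cells it was 9.62%.

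On the log2(TPM + 1) scale, which understates changes of rare transcripts, Aldh1a3 averaged 0.53 and 0.34 in untreated B16, 1.03 and 0.78 in the treated tumors, and 0.048 and 0 in R499. The lower B16PD1 tumor lay above the higher B16 tumor. The difference of B16PD1 minus B16 was 0.47 (standard error 0.14), with an unadjusted p of 0.00359 and a limma adjusted p of 0.989 over the genes tested, so the difference did not pass the correction. The adjusted p was 0.776 to 1 over the alternatives of this limma fit. Limma was fitted to all 6 tumor means of 11264 genes. In B16PD1 minus B16 it called 0% of genes at an adjusted p of 0.05, although 528 genes had an unadjusted p under 0.05. R499 differed from B16 by -0.41 and from B16PD1 by -0.88. Across all genes the median difference was -0.073 in R499 minus B16, and 7 genes (0.0621%) passed, with 8 (0.071%) in R499 minus B16PD1. Members' p-values are not given there. Without B16008 the count in R499 minus B16 was 0, and without R499015 it was 4 and, in R499 minus B16PD1, 3, a count that leaving out B16PD1000 also gave.

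Cells with Aldh1a3 had more genes detected, so the shares were also compared in 3 equal groups of the retained cells by that number. In the low group Aldh1a3 was detected in 3 of 56 B16 cells, 5 of 48 B16PD1 cells, and 1 of 65 R499 cells. In the middle group the counts were 5 of 64, 10 of 56, and 0 of 49. In the high group they were 10 of 57, 18 of 70, and 1 of 42, or 17.5%, 25.7%, and 2.38%. B16PD1 was highest and R499 lowest in each group of cells. The Wilson intervals of B16PD1 and R499 overlapped in the low group and were apart in the others, and those of B16 and R499 overlapped in all 3. These intervals pool the cells of both tumors of a condition and cover counting error only. They leave out the spread between tumors and are no test between conditions. Among B16 and B16PD1 cells, those with Aldh1a3 had a median of 4584 genes detected and those without 3487.

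The cell filter bore on the value in R499. Of the cells it removed, Aldh1a3 was detected in 2 of 24 from B16, 4 of 26 from B16PD1, and 7 of 45 from R499. All 7 of these R499 cells had failed the limit of 10% of TPM from mitochondrial genes, and with 1 exception at 27.6 TPM they had less than 10 TPM, with a median of 3.72. Without any filter on cells, Aldh1a3 was found in 20 of 201 B16 cells (9.95%), 37 of 200 B16PD1 cells (18.5%), and 9 of 201 R499 cells (4.48%), and 14, 27, and 1 of these had more than 10 TPM. The share in R499 was thus 1.28% with the filter and 4.48% without it, lowest of the 3 conditions both times, and without it the transcript was listed in cells of both R499 tumors.

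**Figure D2:**
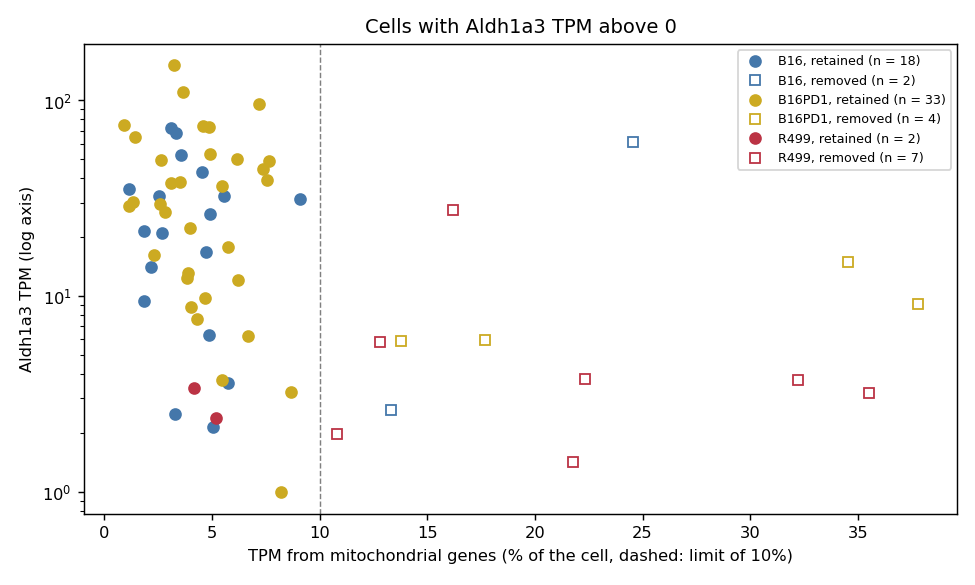
Cells with Aldh1a3 TPM above 0, with Aldh1a3 TPM on a log axis against the percent of the cell's TPM from mitochondrial genes. Filled circles are retained cells and open squares removed cells. Of the R499 cells shown, 2 were retained and 7 removed, and 1 lies above 10 TPM.

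Aldh1a1, the cytosolic enzyme with the same product, was listed at 0 in all 507 retained cells, with a Wilson upper bound of 0.752%, and at 0 in every cell before the filter. Aldh1b1, the mitochondrial relative of Aldh2, was detected in 2 of 174 B16PD1 cells and 2 of 156 R499 cells and in 0 of 177 B16 cells, with values of 5.56 to 16.4 TPM. Neither passed the filter of more than 5 cells, and no comparison was made with them.

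The other 5 members were detected in many more cells than Aldh1a3. Averaged over the 6 tumors, Aldh18a1 was at 176 ± 61.9 TPM (SD, n = 6 tumors), Aldh2 at 58.1 ± 19.6, Aldh9a1 at 49.3 ± 8.45, Aldh3a2 at 30.5 ± 4.94, Aldh7a1 at 19.3 ± 12.7, and Aldh1a3 at 3.42 ± 3.52 TPM. Aldh2 and Aldh9a1 differed by less than the larger of their SDs over tumors, as did Aldh3a2 and Aldh7a1. These orders changed by condition: in B16PD1 Aldh2, at 34.4 TPM, lay below Aldh9a1, at 53.7, and in B16 Aldh7a1, at 30.1, lay above Aldh3a2, at 28.8. The shares of cells followed another order, with Aldh18a1 in 75.7%, Aldh9a1 in 68.2%, Aldh2 in 50.9%, Aldh3a2 in 38.1%, Aldh7a1 in 27.6%, and Aldh1a3 in 10.5% of retained cells. A retained cell held on average 2.30 to 2.95 of the 6 members, least in the R499 tumors at 2.30 and 2.49, and none of the 6 was found in 2.33% to 12.3% of the cells of a tumor.

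Aldh18a1 (ENSMUSG00000025007), on the minus strand of chromosome 19 from 40550257 to 40588463, encodes the enzyme that turns glutamate into the precursor of proline, and it was the most abundant member. A processed pseudogene, Gm15801, lies within it on the same strand, so reads could be split between them. On the log2(TPM + 1) scale it averaged 5.27 and 5.55 in untreated B16, 4.70 and 5.27 in the treated tumors, and 3.49 and 4.70 in R499. Both R499 tumors lay below the others, though R499016 was all but level with B16PD1000. The share of cells with it was 82.4% and 81.4% of B16 cells, 77.9% and 81.8% of B16PD1 cells, and 56.8% and 72.0% of R499 cells by tumor. R499 minus B16 was -1.32, the lowest difference among the members on this scale, and was -0.71 without R499015 and -1.92 without R499016. In TPM, the R499 mean was 54.4% of the B16 mean. B16PD1 minus B16 was -0.42 (standard error 0.40, limma adjusted p = 0.989), with -0.14 without B16PD1000, -0.71 without B16PD1002, and -0.74 with a mitochondrial limit of 5%. In mean TPM R499016, at 166, lay above B16PD1000, at 120.2.

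Aldh9a1 (ENSMUSG00000026687), on the plus strand of chromosome 1 from 167349991 to 167368532, acts on an aldehyde in carnitine synthesis. It averaged 3.91 and 3.98 in untreated B16, 3.86 and 3.8 in the treated tumors, and 3.23 and 3.73 in R499, with both R499 tumors lowest on this scale. In mean TPM R499016, at 46.9, lay above B16007, at 45.4. R499 minus B16 was -0.47, -0.21 without R499015 and -0.72 without R499016, and the R499 mean in TPM was 79.3% of that of B16. Shares of cells were 71.4% and 70.9%, 73.3% and 68.2%, and 59.3% and 65.3%. B16PD1 minus B16 was -0.12 (standard error 0.33, limma adjusted p = 0.994).

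The stretches of 250 bases before the RefSeq start sites of these 2 genes are shown, since both lay lowest in R499 and a start-site sequence was at hand for them in the RefSeq table used (GRCm38.p6), which held such a stretch for 3 of the 6 members tested. Capitals mark CACGTG, the E-box hexamer that reads the same on both strands and is a known binding sequence of factors of the MITF and MYC type. It was found in 6.02% of all 32851 stretches in the table, searched over the same 250 bases, and lies 59 to 54 bases before the start of Aldh18a1 (chr19:40588464-40588713, minus strand), whereas that of Aldh9a1 (chr1:167349741-167349990, plus strand) does not hold it. The stretch of Aldh3a2, which is not shown, holds it 30 to 25 bases before the start, and Aldh3a2 had overlapping R499 and B16 values. A match of letters says nothing of binding in these cells, and no other motif was searched.
Aldh18a1: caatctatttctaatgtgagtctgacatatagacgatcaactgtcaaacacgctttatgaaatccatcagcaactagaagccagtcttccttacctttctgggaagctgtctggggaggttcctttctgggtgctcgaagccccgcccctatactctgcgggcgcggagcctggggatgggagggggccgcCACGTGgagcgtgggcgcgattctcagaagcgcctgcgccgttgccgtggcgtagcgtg
Aldh9a1: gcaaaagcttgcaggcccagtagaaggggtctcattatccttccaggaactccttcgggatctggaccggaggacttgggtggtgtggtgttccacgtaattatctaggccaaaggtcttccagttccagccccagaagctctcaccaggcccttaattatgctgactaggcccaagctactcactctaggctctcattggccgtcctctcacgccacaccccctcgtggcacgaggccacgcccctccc

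Aldh2 (ENSMUSG00000029455), on the minus strand of chromosome 5 from 121566027 to 121593824, encodes the mitochondrial enzyme that oxidizes acetaldehyde. It averaged 3.10 and 3.36 in untreated B16, 3.01 and 2.10 in the treated tumors, and 3.03 and 3.35 in R499. B16 and R499 overlapped, with a difference of -0.038 in R499 minus B16, and the R499 mean in TPM was 112% of the B16 mean. Treated tumors were lowest, though B16PD1000 was all but level with R499015. With a mitochondrial limit of 5%, B16PD1000, at 2.99, lay above both R499 tumors, at 2.75 and 2.93. How many of all genes have treated tumors lowest was not counted. B16PD1 minus B16 was -0.68 (standard error 0.36, limma adjusted p = 0.989), a difference that was -0.22 without B16PD1002 and -1.13 without B16PD1000.

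Aldh3a2 (ENSMUSG00000010025), the fatty aldehyde dehydrogenase gene on the minus strand of chromosome 11 from 61223417 to 61267464, averaged 1.99 and 1.98 in untreated B16, 2.17 and 2.67 in the treated tumors, and 2.21 and 1.59 in R499. R499 overlapped B16, with a difference of -0.085 that was 0.22 without R499016. Both B16PD1 tumors lay above both B16 tumors, and the difference was 0.43 (standard error 0.32, limma adjusted p = 0.989), with 0.18 without B16PD1002 and 0.68 without B16PD1000. Aldh7a1 (ENSMUSG00000053644), the lysine breakdown gene on chromosome 18 from 56509687 to 56572951, had means of 1.73 and 1.09, 1.39 and 0.98, and 1.30 and 1.56 in the same order, with every pair of conditions overlapping. R499 minus B16 was 0.016, and B16PD1 minus B16 was -0.23 (standard error 0.29, limma adjusted p = 0.990), and turned to 0.090 without B16007. It overlaps Phax on the other strand, and reads of the 2 genes can be told apart only where strand is used in counting, which is not given in the sources used here. In B16008 a single cell reached 2966 TPM, and the mean of that tumor in TPM was 42.0 with that cell and 7.61 without it, against 18.3 in B16007.

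**Figure D3:**
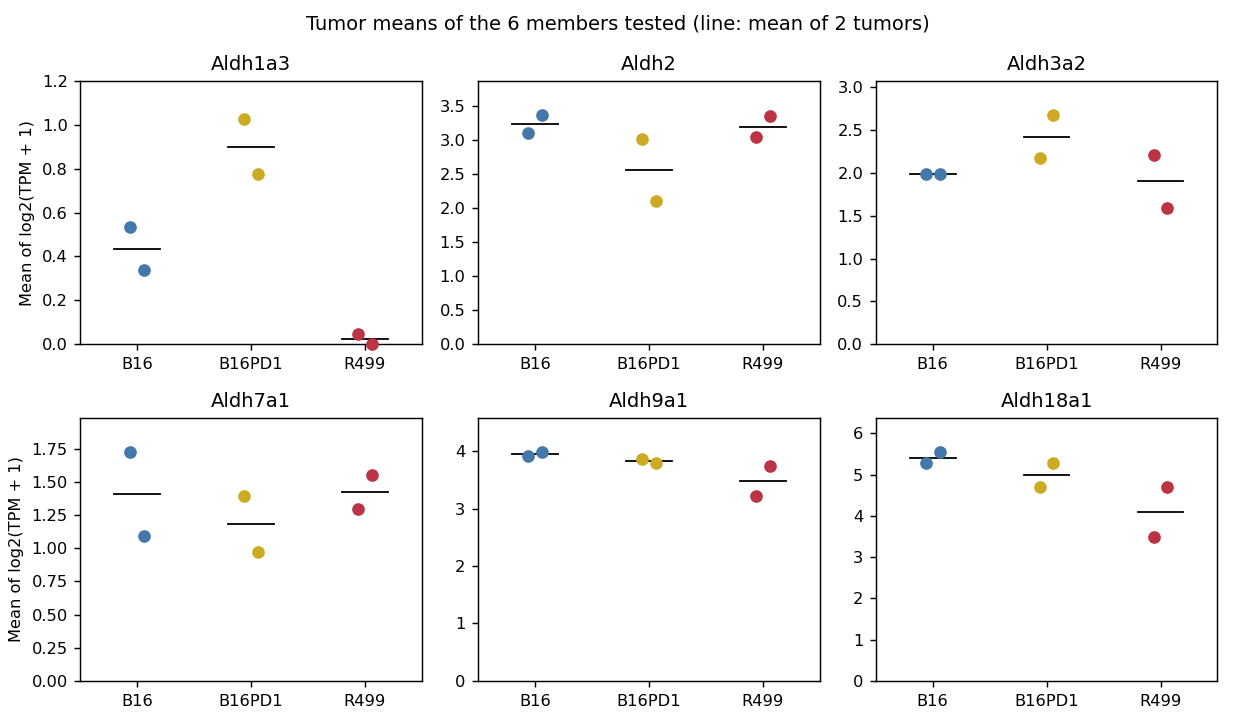
Tumor means of log2(TPM + 1) of the 6 members tested, with 2 tumors per condition as points and their mean as a line. Aldh1a3, Aldh9a1, and Aldh18a1 have both R499 tumors below the other 4, whereas at least 1 R499 tumor lies among or above the others for Aldh2, Aldh3a2, and Aldh7a1.

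Aldh1a3 was not the only member with lower values in R499. Of the 6 members, 5 had a lower mean in R499 than in B16, with a median difference of -0.25 beside -0.073 over all genes tested. Most genes tested were thus lower too, and Aldh2 (-0.038) and Aldh3a2 (-0.085) lay near the median of all genes. In 3 members (Aldh1a3, Aldh9a1, and Aldh18a1) both R499 tumors lay below all 4 others in mean log2(TPM + 1). Under the 7 alternatives that changed the values of all 6 tumors, Aldh1a3 kept that order in 7, and Aldh9a1 and Aldh18a1 in 3 each. Both of these lost it in mean TPM, with a pseudocount of 10, with a mitochondrial limit of 5%, and with the cell mean subtracted. Over all genes tested, 17.8% had the order on the first scale, and as the contrast was used to choose the members nothing is read from the count. Which member stood lowest depended on the scale. On the log2 scale Aldh18a1 had the lowest difference, at -1.32 against -0.41 for Aldh1a3, whereas relative to its B16 level in TPM Aldh1a3 was lowest, at 1.29% against 54.4% for Aldh18a1, or 9.62% against 50.3% without a filter on cells. The percentages were 79.3% for Aldh9a1, 104% for Aldh3a2, and 112% for Aldh2. That of Aldh7a1 was 65.4%, but 152% without the B16008 cell at 2966 TPM, 108% without B16008, and 195% in cells with more than 2000 genes. In B16PD1 against B16, 2 of 6 members (Aldh1a3 and Aldh3a2) had both treated tumors above both untreated ones, beside 17.9% of all genes tested. A lower mean was seen in 4 of 6, beside a median difference of 0.012 over all genes tested. None of the 6 passed an adjusted p of 0.05 in that contrast.

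Detection of the other members was higher in the high than in the low group of cells in every condition, and the number of genes detected was lowest in R499015. In the high group Aldh18a1 was detected in 96.5% of B16, 92.9% of B16PD1, and 83.3% of R499 cells, and in the low group in 66.1%, 58.3%, and 43.1%, so that R499 was lowest in both. For Aldh9a1 the shares were 91.2%, 87.1%, and 92.9% in the high group and 55.4%, 43.8%, and 38.5% in the low group, and R499 was lowest in the second of these. Aldh2 was lowest in B16PD1 in all 3 groups of cells, but in the middle group, at 46.4%, all but level with R499, at 46.9%. In the low group it was at 16.7% against 33.9% in B16 and 33.8% in R499. In the high group it was at 70% against 78.9% in B16 and 76.2% in R499. Aldh3a2 and Aldh7a1 changed their order of conditions from group to group. With the mean of each cell over the genes tested subtracted, R499 minus B16 was -0.31 for Aldh1a3.

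**Figure D4:**
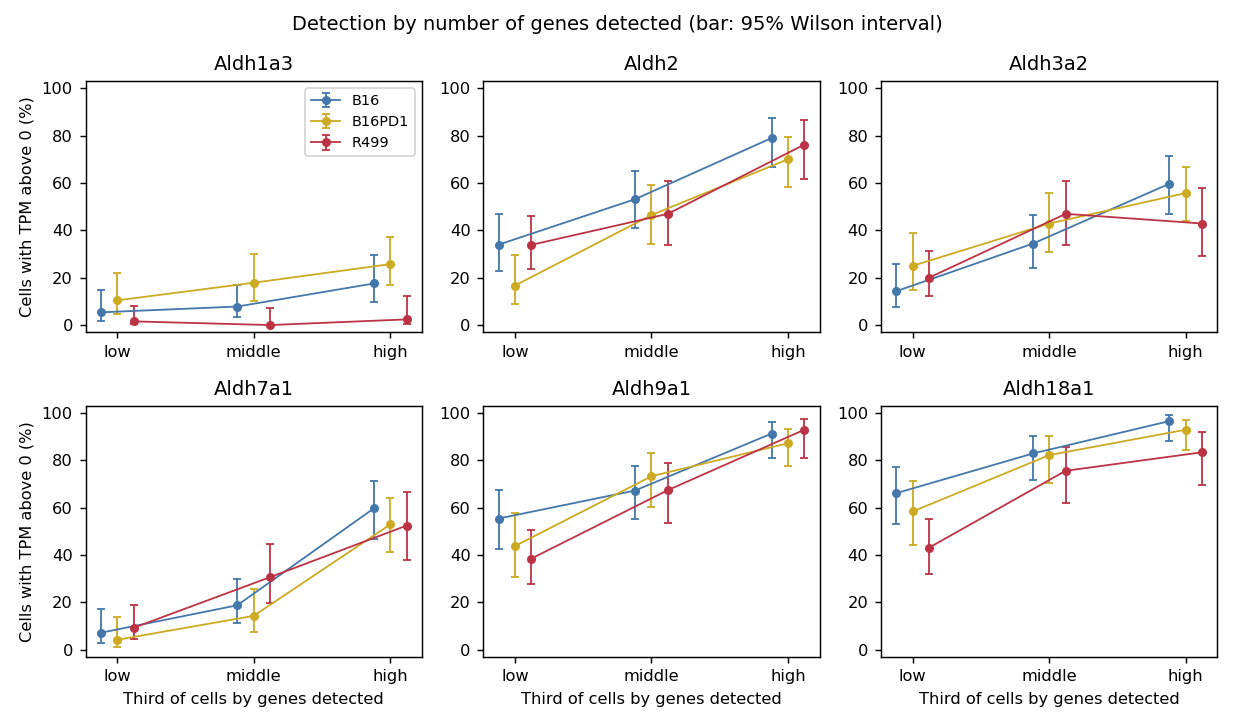
Percent of retained cells with TPM above 0 for the 6 members, in 3 equal groups of cells by number of genes detected (at most 2947, up to 4236, and more), with 95% Wilson intervals. Cells of both tumors of a condition are pooled, so the intervals leave out the spread between tumors. Aldh1a3 in R499 stays between 0% and 2.38% in all 3 groups. In B16 all 6 members rise from the low to the high group, Aldh1a3 from 5.36% to 17.5%.

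Within B16 and B16PD1 tumors, cells with and without Aldh1a3 were compared for the other members as a description. Aldh2 was found in 60.8% of the 51 cells with Aldh1a3 and in 50% of the 300 without, Aldh3a2 in 49.0% and 38.0%, Aldh7a1 in 39.2% and 25.7%, and Aldh9a1 in 74.5% and 70.3%. Aldh18a1 went the other way, at 72.5% and 82.3%. Cells of both conditions were pooled, and 33 of the 51 with Aldh1a3 were B16PD1 cells. By tumor, the ranges of cells with and without Aldh1a3 overlapped for Aldh2, Aldh3a2, Aldh9a1, and Aldh18a1. For Aldh3a2 they were 27.8% to 63.6% and 32.5% to 43.8%. For Aldh7a1 they were apart, at 36.4% to 42.9% and 20.3% to 33.8%. Cells with Aldh1a3 had more genes detected, as given above, and its part in these shares was not tested. The melanocyte marker Mlana was found in 100% and 99.7%, Mitf, the lineage's central transcription factor, in 96.1% and 93.3%, and Sox10, a transcription factor of the neural crest lineage, in 76.5% and 64.0%. By tumor, Sox10 ranged from 54.5% to 85.7% of cells with Aldh1a3 and from 57.0% to 69.9% of those without.

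Of 13 further aldehyde dehydrogenases listed, 7 were detected and tested, and 6, among them Aldh1a2, which also makes retinoic acid, were at 0 in retained cells. Aldh6a1, an enzyme of valine breakdown, Aldh1l2, the mitochondrial formyltetrahydrofolate dehydrogenase, and Aldh1l1, its cytosolic counterpart, were the most abundant, at 35.8, 26.0, and 13.1 TPM. Aldh1l2 averaged 2.65 and 2.43 in untreated B16, 2.27 and 2.12 in the treated tumors, and 0.75 and 1.75 in R499. Both R499 tumors lay below the other 4, an order that 17.8% of all genes tested had. R499 minus B16 was -1.29 (standard error 0.34), with an unadjusted p of 0.00159 and a limma adjusted p of 0.218, and was -0.79 without R499015. A single B16007 cell held 2961 TPM of Aldh1l2. It was detected in 50.5% and 45.3% of B16 cells, 48.8% and 45.5% of B16PD1 cells, and 19.8% and 40.0% of R499 cells by tumor. Aldh6a1 differed by -0.073 and Aldh1l1 by 0.24 in R499 minus B16 (limma adjusted p = 0.960 and 0.734), and without B16008 these were 0.13 and -0.040. Without B16007 that of Aldh1l1 was 0.53. None of the 7 passed in any of the 3 contrasts. Of the 7, 5 had a lower mean in R499 than in B16, with a median of -0.12 beside -0.073 over all genes tested, most of which were lower.

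**Figure D5:**
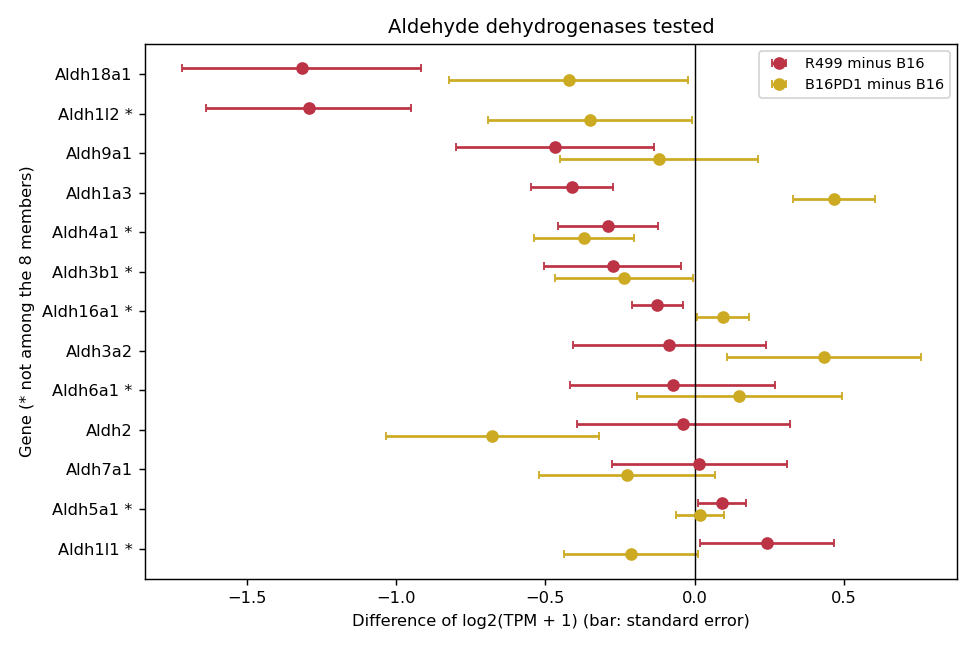
Differences of log2(TPM + 1) with standard errors for the 13 aldehyde dehydrogenases tested, R499 minus B16 in red and B16PD1 minus B16 in yellow. Aldh18a1 (-1.32) and Aldh1l2 (-1.29) have the lowest values in R499 minus B16, and Aldh1a3 lies at -0.41 there and at 0.47 in B16PD1 minus B16.

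Genes around the reactions of the family were counted from fixed lists. Of the genes for uptake, storage, and conversion of retinoids, 7 of 16 were tested, with Dhrs4, Rdh11, and Rdh5, which convert retinol and retinaldehyde, the most abundant, at 48.1, 38.8, and 27.7 TPM. Of carriers, receptors, coregulators, and degrading enzymes of retinoic acid, 12 of 17 were tested. Fabp5, a fatty acid binding protein that also carries retinoic acid, was at 565 TPM and averaged 8.01 and 7.42 in untreated B16 and 7.93 and 8.84 in R499, which overlapped. Its difference was 0.67 (limma adjusted p = 0.518), or 0.22 without R499016. Rarb, a retinoic acid receptor whose gene is itself induced by the ligand, was at 7.06 TPM and averaged 0.74 and 0.41 in untreated B16 and 1.04 and 0.34 in R499, with a difference of 0.11 (limma adjusted p = 0.887) that was -0.23 without R499015 and -0.053 without B16008. Ncor1, a corepressor of such receptors, differed by -1.06 (standard error 0.31, limma adjusted p = 0.303), with tumor means of 2.98 and 2.67 in B16 and 1.54 and 1.99 in R499. In both lists 0 genes passed in any contrast, and the medians in R499 minus B16 were 0.078 and -0.025, beside -0.073 over all genes.

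The lists that touch the other members gave no calls either. Of proline and glutamate genes 10 were tested, with Oat, Got1, and Got2 the most abundant and a median of -0.052 in R499 minus B16. Of other enzymes that clear aldehydes 17 were tested, led by Akr1a1, Akr1b3, and Gsta4, with a median of 0.075. Gsta4 encodes a glutathione transferase that acts on lipid aldehydes. It averaged 5.68 and 6.17 in untreated B16, 5.44 and 6.21 in the treated tumors, and 7.0 and 6.70 in R499. Both R499 tumors lay above the rest, and how many of all genes have that order was not counted. Gsta4 differed by 0.92 in R499 minus B16 (standard error 0.35, limma adjusted p = 0.380). Of lysine and carnitine genes 5 were tested, led by Dlst, Gcdh, and Aass, with a median of -0.036. Of fatty aldehyde and sphingolipid genes 10 were tested, led by Gnpat, Far1, and Sgpl1, with a median of -0.020.

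The genes whose tumor means were most like those of Aldh1a3 over the 6 tumors, among 5857 genes with a mean of at least 1, were Pradc1, Rtn4, Sec23b, Nnmt, and Phyhd1, with Pearson r from 0.984 to 0.991 as a description. Nnmt, which methylates nicotinamide, averaged 1.78 and 1.53 in untreated B16, 2.40 and 2.05 in the treated tumors, and 0.82 and 0.74 in R499. The tumors of a condition share their line and treatment, and 155 of the 5857 genes had an r above 0.9. Over the 351 cells of B16 and B16PD1, the highest mean r within tumors was 0.27, for Aida, followed by Rps10-ps2, Bivm, Elmod2, and Ndrg3, among 8212 genes with a median of 0.032, which in values this sparse is weak.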

How the data were processed

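Per the labels and the methods, the authors aligned reads with STAR in 2-pass mode and quantified them with RSEM, on mm10 (GRCm38). They deposited TPM per gene and cell, and versions and annotation are not given in the sources used here. Columns name the tumor, which gives the condition but not the replicate number of the titles. Cells were retained with over 1000 genes detected and a mitochondrial share of TPM under 10%, and genes detected in more than 5 of them were tested (11264). The study's minimum of mapped reads could not be applied to TPM, and more cells were retained than the study kept, doublets were not called, and no 2 cells shared a chip position. The value of a tumor was the mean of log2(TPM + 1) over its cells. Limma 3.58.1 in R 4.3.3 was fitted to all 6 tumors with a trend (two-sided, Benjamini-Hochberg adjustment over all genes), and was tested on simulated data. Per the paper the cells came from 6 mice and 6 tumors, and the mice were injected on both flanks. Which flank a tumor came from, or whether flanks were pooled, is not stated. The p-values rest on the spread between tumors of the same condition, which limma draws toward that of other genes. Shares have Wilson intervals (statsmodels 0.14.6), and a count of 0 of n allows 3 of n. Positions are from GENCODE M21 (25103 of 25215 identifiers matched). The members, lists, and tests were chosen with earlier results of these data known. Named genes are the members, the 3 most abundant of each list and any past the threshold, and the 5 most like Aldh1a3 by each measure. The genes Ncor1, Gsta4, and Aldh1l2 are among the 3 most abundant of their lists, and the detail given for them was chosen after their values were seen. Alternatives changed pseudocount, filters, summary, centering, covariate, and trend, and left out each tumor. Subclones were not analysed here.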

Additional observations from a re-analysis of the deposited data

Results flagged for a closer look

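In cells that the filter removed and that entered no comparison, Aldh1a3 was detected in 15.6% of R499 cells (7 of 45, 95% Wilson interval 7.75% to 28.8%), above the 8.33% of untreated B16 cells (2 of 24, interval 2.32% to 25.8%) and beside 15.4% of B16PD1 cells (4 of 26). The intervals, which pool the cells of both tumors of a condition, overlap, and the difference was not tested. Among cells that failed the mitochondrial limit alone, the counts were 7 of 38, 2 of 14, and 4 of 19. The 7 R499 cells had 1.42 to 27.6 TPM with a median of 3.72, and the 2 B16 cells had 2.61 and 61.3 TPM.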

How the results depend on the processing

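Aldh1a3 was lower in R499 than in B16 and in B16PD1 under all 17 alternatives, but the size of the difference depended on the scale. In many of the 17 the direction could not have changed, in these contrasts or in B16PD1 minus B16. The tumors of the 3 conditions did not overlap, so leaving out 1 tumor could not reverse a difference. Filters on genes and the trend left the difference as it was. R499 minus B16 (main value -0.41) was -0.70 and -0.16 with pseudocounts of 0.1 and 10, -1.83 with log2 of the mean TPM plus 1, -0.31 with the cell mean subtracted, and -0.26 with genes detected per cell as a covariate, and with 1 tumor left out -0.51 to -0.31. R499 minus B16PD1 (main value -0.88) was -1.45, -0.37, -3.01, -0.74, and -0.64 in that order, -0.74 without a filter on cells and also with a mitochondrial limit of 5%, and -1.0 to -0.75 with 1 tumor left out. B16PD1 minus B16 of Aldh1a3 was above 0 under all 17, from 0.21 to 1.18, with adjusted p from 0.776 to 1. Of the other members in that contrast, Aldh7a1 ranged from -0.54 to 0.090 with 1 tumor left out, above 0 only without B16007, and Aldh9a1 turned to 0.045 with log2 of the mean TPM plus 1. In the other 83 refits no member of the other 5 changed direction or passed the threshold.

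Counts over all genes in B16PD1 minus B16 were 13 without a filter on genes and 0 to 2 with 1 tumor left out, 2 coming without B16007. In R499 minus B16 (main count 7) they were 11 and 3 with pseudocounts of 0.1 and 10, 0 with log2 of the mean TPM plus 1, with the covariate, and without a trend, 20 with genes in more than 50 cells and with cells of more than 2000 genes, 22 without a filter on cells, 28 with the cell mean subtracted, and 0 to 10 with 1 tumor left out (0 without B16008, 4 without R499015). In R499 minus B16PD1 (main count 8) they were 13, 3, 0, 0, 0, 14, 14, 16, and 22 in that order, 14 without a filter on genes, and 3 to 8 with 1 tumor left out (3 without B16PD1000 or R499015). The causes were not tested. A tumor left alone in its condition is assumed to vary like the others. Of 170 refits of the other members in the R499 contrasts, 10 moved by more than the SD between tumors, and of 144 shares of cells under other cell sets, another limit of 10 TPM (chosen after seeing the data), or fewer tumors, 32 did. Many of these could not move by that measure, so the counts do not measure stability. With 2 tumors per condition, leaving 1 out shifts a difference or a share by no more than that SD. Filters on genes and the trend leave the difference as it was, and the shares of Aldh1a1 stay at 0. The alternatives for percentages of mean TPM and for genes outside the members were also chosen after seeing the data. Among the latter with 1 tumor left out, R499 minus B16 ranged from -0.28 to 0.13 for Aldh6a1, -0.040 to 0.53 for Aldh1l1, and -0.23 to 0.46 for Rarb. No paired analysis was possible because the columns carry no replicate number of the titles. With 2 tumors per condition, the rarity of Aldh1a3 and the unknown depth limit what can be resolved.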
